A study of Mus musculus with 4 samples.

Results

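The regions described here are clustered antibody-only Foxo1 sites. These are peaks of the antibody ChIP list that share no base with a peak of the biotin ChIP list and that start within 10000 bp of the start of at least 1 other antibody peak on the same chromosome. Of the 2507 antibody peaks, 398 met this rule (15.9%). Another 1768 antibody peaks had no biotin overlap and no such neighbour and are called isolated, and 341 overlapped a biotin peak and are called shared. The calls of both lists chose the members, so their overlap and their spacing describe the choice and are given without a test.

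The study mapped binding of Foxo1 in CD4+ mouse T cells by chromatin immunoprecipitation and sequencing. The antibody ChIP used C57BL/6 cells and an antibody against Foxo1. The biotin ChIP used streptavidin and cells of Foxo1tagBirA mice, also labelled C57BL/6, whose genotype is given as Foxo1tag/tagbirA. In such mice BirA, a bacterial biotin ligase, adds biotin to the tagged protein. An input library accompanied each ChIP, so that each of the 4 groups is 1 library, and only peak lists were analysed. The sources used here give no treatment, age, pooling of animals or promoter of BirA. Peak lists hold no expression values, so the labelled cell type could not be checked against marker genes.

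Foxo1 is a forkhead transcription factor that binds DNA in the nucleus and is moved to the cytoplasm after phosphorylation by Akt, a kinase downstream of PI3K. In resting T cells it maintains expression of genes for homing and survival, among them those of L-selectin and the IL-7 receptor. Regulatory regions of the genome often hold several binding sites within a few kilobases, and ChIP-seq then gives either several narrow peaks or 1 broad one, depending on how peaks are called. Positions below refer to mm9 and count from 1. The gene and promoter tables at hand follow GRCm38, so peaks were not assigned to genes and no sequence was read at them.

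The 398 members fell into 223 regions, taken as chains of antibody peaks whose neighbouring starts lie within 10000 bp. Most regions were small. Regions with 2 members numbered 149, those with 3 numbered 10 and those with 4 numbered 2, while 62 held a single member beside shared peaks. Of the 223 regions, 152 contained antibody-only peaks alone and held 317 members, and 71 also contained shared peaks and held 81 members (20.4%, exact Clopper-Pearson 95% interval 16.5 to 24.6%). The most common makeup was a pair of antibody-only peaks, in 141 regions, followed by 1 antibody-only peak beside 1 shared peak, in 61. Intervals here cover counting error over peaks only, and peaks of 1 region or 1 library are not independent replicates.

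Clustered peaks were present over the whole range of peak strength. Of the 2166 antibody-only peaks, 398 were clustered (18.4%, 16.8 to 20.1%). The number was 221 (10.7%) when peaks starting within 1000 bp were joined first. It was 90 (9.36%) in the 50% of antibody peaks with the highest fold and 217 (13.3%) among those with a p-value of at most 1e-13. The 2166 antibody-only peaks of the full list were divided into 10 bins of nearly equal size by the authors' fold, a linear ratio deposited with each peak. The clustered share lay between 15.7% and 21.8% in all 10 bins. It was 16.6% (11.9 to 22.2%) in the bin with the lowest folds and 19.4% (14.3 to 25.2%) in the bin with the highest. By the same neighbour criterion, 80 of 341 shared peaks were clustered (23.5%, 19.1 to 28.3%). The difference between antibody-only and shared peaks was not tested.

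Members lay close to their nearest antibody peak, with a median start-to-start distance of 1186 bp (interquartile range 460.5 to 4593 bp). The median was 3415 bp with a window of 20000 bp in the rule and 4339 bp when peaks starting within 1000 bp were joined first. The distance was at most 200 bp for 21 members, 201 to 500 bp for 85 and 501 to 1000 bp for 76. It was 1001 to 2000 bp for 46, 2001 to 5000 bp for 78 and 5001 to 10000 bp for 92. Members thus divided into 182 with a neighbour within 1 kb (45.7%) and 216 with one 1 to 10 kb away (54.3%). For 328 members the nearest peak was another antibody-only peak, and for 70 it was a shared one.

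**Figure D1:**
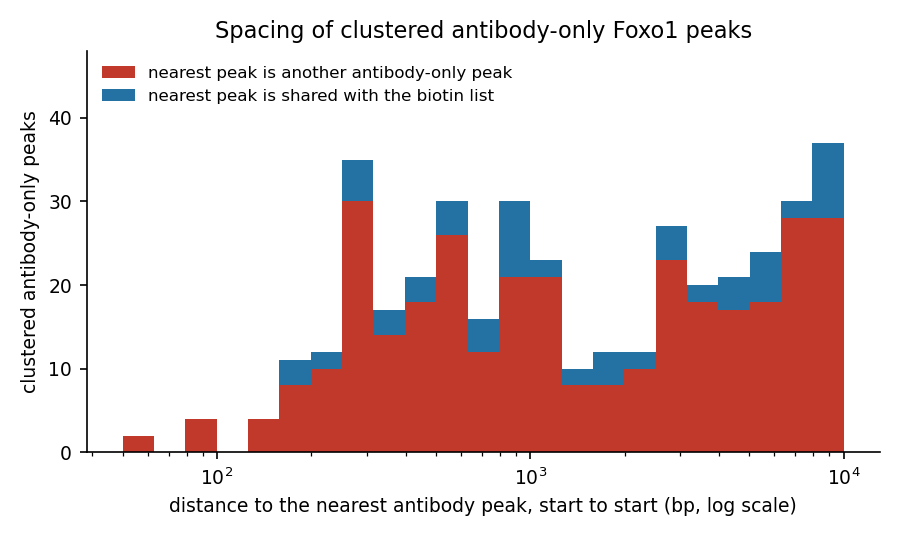
Histogram of the distance from each of the 398 clustered antibody-only peaks to its nearest antibody peak (x axis, bp from start to start, log scale), stacked by whether that peak is antibody-only (red, 328 peaks) or shared (blue, 70 peaks). Distances spread from 60 to 9977 bp around a median of 1186 bp, and the 2 peaks of a pair count with the same distance.

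Among neighbours that were both members there were 173 pairs, of which 75 started within 1 kb of each other. In 36 of these 75 pairs the gap between the peaks was under 250 bp. That is the approximate fragment length of the library with adapters in the labels' protocol, so the genomic part of a fragment was shorter. Whether the 2 peaks of a pair with so small a gap mark 2 sites or a single one was not tested. Summits of neighbouring members were 0 to 99 bp apart in 3 pairs, 100 to 199 bp in 10, 200 to 299 bp in 15 and 300 to 399 bp in 12. There were 4 pairs at 400 to 499 bp, 11 at 500 to 599 bp and 10 at 600 to 699 bp. Beyond these, 1 pair lay at 700 to 799 bp, 3 at 800 to 899 bp and 7 at 900 to 999 bp. With so few pairs per step, these counts are given as a description of the list.

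The closest pair of members was on chromosome 11, where a peak at 53659243 to 53659289 (fold 9.04) was followed after a gap of 13 bp by a peak of 1 bp at 53659303 (fold 3.87). The pair on chromosome 6 (140656695 to 140656750 and 140656785 to 140656860) had folds of 5.99 and 6.62. For the pair on chromosome 8, at 86272699 to 86272757 and 86272796 to 86272839, the folds were 7.93 and 7.46. These 3 pairs were separated by gaps of 13 to 38 bp, and the folds of the last pair of peaks were within a ratio of 1.06 of each other. On chromosome 17 a pair at 84732412 to 84732466 and 84732541 to 84732636 had folds of 8.39 and 10.6. The fifth pair, on chromosome 10 at 118070650 to 118070676 and 118070801 to 118070905, had folds of 13.5 and 5.20.

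At the other end of the range, the widest-spaced pair lay on chromosome 18, with starts 9977 bp apart and folds of 6.89 and 11.3. These 2 peaks were also the members nearest to the 10000 bp limit, and the next member inside it was a peak on chromosome 11 at 52079351 to 52079386, with a neighbour at 9692 bp and a fold of 6.63. Just outside the limit were 3 antibody-only peaks. They lay at 13676441 to 13676501 on chromosome 8, at 96839212 to 96839336 on chromosome 11 and at 75855806 to 75855869 on chromosome 14. Their nearest antibody peaks started 10097, 10114 and 10244 bp away, and their folds were 9.67, 7.56 and 11.1. The peaks on either side of the limit are few and were named by distance alone, so their folds are given as a description. The other widely spaced pairs of members were on chromosome 11 (9692 bp apart), chromosome 7 (9665 and 9299 bp apart) and chromosome 19 (9294 bp apart). Their folds ran from 3.09 to 19.2.

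The members' folds covered nearly the same range as those of isolated antibody-only peaks. Members had a median fold of 8.67 (order-statistic 95% interval of the median 8.28 to 9.13, range 3.09 to 46.5). Isolated peaks had a median of 8.89 (8.62 to 9.13, range 3.01 to 40.7). The difference of -0.22 had an interval of -0.85 to 0.51, formed from the outer limits of both medians. Shared peaks, which the rule leaves out, had a median of 18.2 (17.0 to 19.8). Of the whole antibody list, 45.1% of peaks had a fold of at least 10. Among members 149 did (37.4%, 32.7 to 42.4%), and among isolated peaks 700 did (39.6%, 37.3 to 41.9%). Since the rule rests on calls from the same library, nothing is read from these shares.

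**Figure D2:**
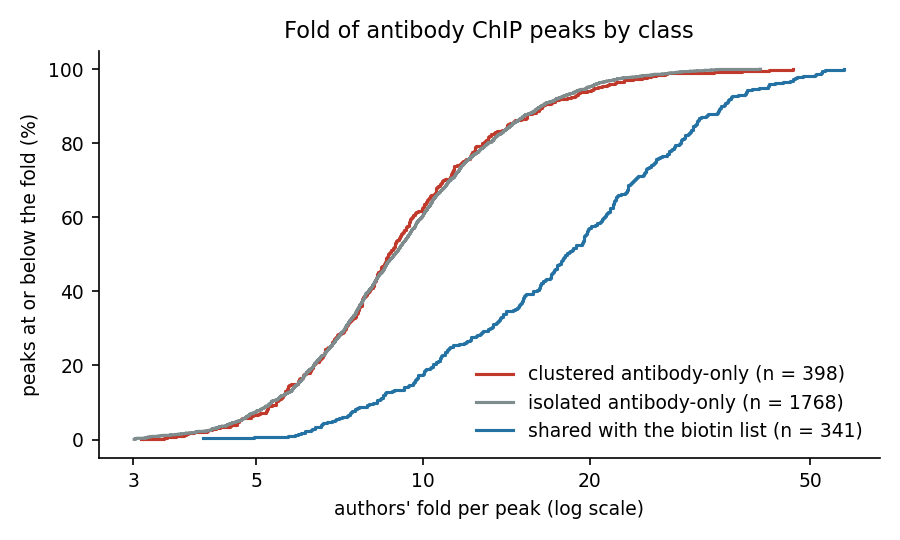
Cumulative share of antibody ChIP peaks (y axis, percent) by the authors' fold (x axis, log scale) for clustered antibody-only (red, n = 398), isolated antibody-only (grey, n = 1768) and shared peaks (blue, n = 341). The red and grey curves run together, with medians of 8.67 and 8.89, and the blue curve lies to the right with a median of 18.2.

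In the whole antibody list the deposited p-value was 0 for 16.2% of peaks and above 1e-12, near the limit of the list, for 12.9%. It was listed as 0 for 65 members (16.3%, 12.8 to 20.3%) and for 254 isolated peaks (14.4%, 12.8 to 16.1%). It was above 1e-12 for 66 members (16.6%, 13.1 to 20.6%) and 251 isolated peaks (14.2%, 12.6 to 15.9%). Nothing is read from these shares either, which come from the calls that the rule used. The weakest p-value among members was 7.49e-12. Within the members, 21 of 81 peaks in regions with a shared peak had a p-value listed as 0 (25.9%, 16.8 to 36.9%), against 44 of 317 in antibody-only regions (13.9%, 10.3 to 18.2%). This contrast was not tested, and its intervals overlap.

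Among members, the median width fell as the fold rose, though some of the narrowest members had low folds. Members were divided into 4 bins by fold. In the bin with the lowest folds (3.09 to 6.73, n = 100) the median width was 118.5 bp (105 to 130 bp). It was 90 bp (84 to 106 bp) in the next bin, 79 bp (65 to 89 bp) in the one after and 70 bp (61 to 77 bp) in the bin with the highest folds (11.8 to 46.5, n = 100). Spearman's rho between fold and width was -0.45 over the 398 members and -0.48 over the 1768 isolated peaks, given as a description since all points come from 1 library. It was thus present in clustered and isolated peaks alike. Both values of a peak come from the same calling step, and its part in the relation was not tested.

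In all, members had a median width of 85 bp (82 to 91 bp) and isolated peaks one of 92 bp (89 to 94 bp). Shared peaks had a median width of 87 bp (81 to 94 bp), so the lower width was not particular to members. The widest member, on chromosome 8 at 35217507 to 35217881, measured 375 bp and had a fold of 6.10. At the other extreme, 7 members were at most 10 bp wide (1.76%). The share was 1.75% among isolated peaks and 1.72% in the whole antibody list, so such peaks were no more common among members. The narrowest member was a peak of 1 bp with a fold of 3.87. A peak of 4 bp on chromosome 19 had a fold of 4.08, and a peak of 9 bp on chromosome 10 had 6.50. Not all of the narrowest members thus followed the relation of width and fold given above. The 23 members with a fold of at least 20 had widths of 12 to 107 bp and a median of 52 bp.

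The member of highest fold lay on chromosome 2 at 24775168 to 24775249. It had a fold of 46.5, the 11th highest of the antibody list, while its neighbour 329 bp away (24775497 to 24775557) had a fold of 4.66. This ratio of 9.99 was the largest between neighbouring members. On chromosome 11 a member at 54769629 to 54769735 had a fold of 42.2, and its neighbour 2459 bp away had 13.6. A member on chromosome 18 with a fold of 37.7 was 6227 bp from a peak with a fold of 12.8. These members were named for their high folds, so the lower fold beside each of them is no separate result. No biotin peak lay within 50 kb of these high peaks, the nearest being 56314, 831231 and 501380 bp away.

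Chromosome 10 held 2 of the 10 members with the highest fold. A peak of 15 bp at 80655454 to 80655468 (fold 33.6) lay 285 bp from a peak of 127 bp with a fold of 14.6. A peak of 21 bp at 84038971 to 84038991 (fold 25.8) lay 270 bp from a peak of 148 bp with a fold of 5.61. In both pairs the narrow peak was the higher. A 12 bp peak on chromosome 15 at 81131727 to 81131738 had a fold of 27.4 and a neighbour with 8.91. The member on chromosome 7 at 132695716 to 132695767 had a fold of 26.4, and its neighbour 9215 bp away had 9.09. The other 3 of the 10 members stood beside shared peaks and are described with these below.

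Neighbouring members often differed in fold. Over the 173 pairs of neighbouring members, the higher fold exceeded the lower by a median ratio of 1.55 (interquartile range 1.21 to 2.07), and the ratio was at least 2 in 47 pairs (27.2%). For the 75 pairs with starts within 1 kb the median ratio was 1.55, and for the 98 pairs farther apart it was 1.52. Pearson's r between the log2 folds of neighbours was 0.024 over the 173 pairs and Spearman's rho was 0.0081. Within 1 kb r was -0.027 (n = 75), and beyond it r was 0.065 (n = 98). All pairs share 1 library and a lower limit of calling, and a member of a larger region can enter 2 pairs. No ratio was computed for antibody-only peaks that are not neighbours, so the ratios describe these pairs only.

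**Figure D3:**
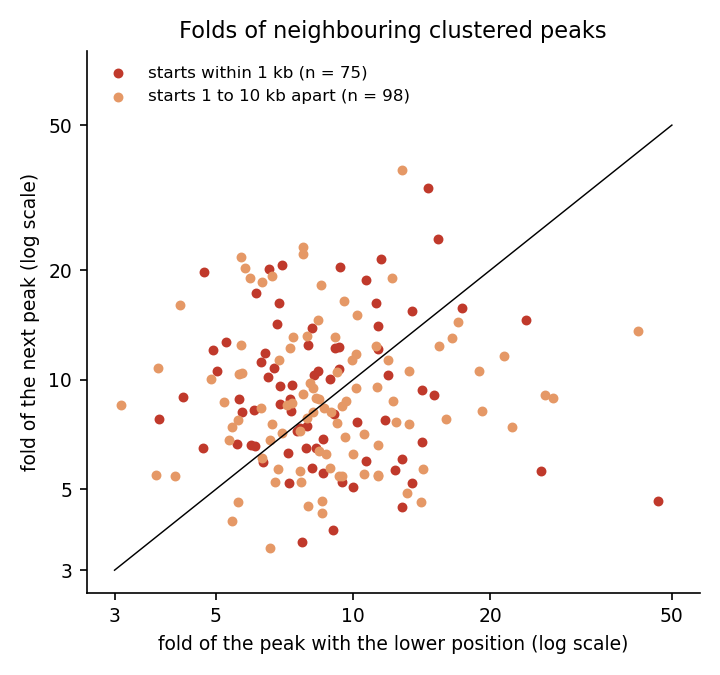
Fold of each pair of neighbouring clustered antibody-only peaks, with the peak at the lower position on the x axis and the next peak on the y axis (both log scales), for starts within 1 kb (red, n = 75) and 1 to 10 kb apart (orange, n = 98). Points scatter on both sides of the line of equal folds, with Pearson's r of 0.024 over the 173 pairs, and the point at the far right is the chromosome 2 pair with folds of 46.5 and 4.66.

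Regions with 3 or more members numbered 12. Of these, 11 contained antibody-only peaks alone. On chromosome 4, a region of 10.1 kb (48047366 to 48057494) held 4 members with folds of 14.3, 5.71, 8.15 and 9.52 in order of position. The last 3 lay together, with starts 8255, 8956 and 10045 bp from that of the first, and the nearest biotin peak was 2526999 bp away. No other of the 12 regions was so far from a biotin peak.

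The other region with 4 members lay on chromosome 8 (35208232 to 35226681, 18450 bp) and had low folds of 6.32, 6.10, 6.59 and 3.45. It contained the widest member, of 375 bp, and 1 biotin peak that met no antibody peak, 1521 bp from the first member and with a biotin fold of 3.37. Another of the 12 regions also enclosed an unshared biotin peak. It lay farther along chromosome 8 (125556805 to 125566493), with member folds of 7.17, 8.52 and 18.2. Its biotin peak, with a biotin fold of 7.59, was 1453 bp from the highest member, a peak of 18 bp. A further region of the same chromosome, from 14985648 to 14994684, had folds of 9.47, 5.44 and 4.08 and no biotin peak nearer than 1298981 bp.

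The member of highest fold in these 12 regions was on chromosome 17, where a region of 7.60 kb (84580360 to 84587963) had folds of 11.5, 21.5 and 11.6. All 3 members there exceeded a fold of 10, which held for no other of the 12 regions. The region on chromosome 11 from 52079351 to 52096141 showed its highest fold in the middle, with 6.63, 19.2 and 8.22. The folds of its other region, from 96849326 to 96857972, were 11.9, 11.4 and 5.48. An isolated peak just outside the limit, the one at 96839212 named above, started 10114 bp before it.

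Chromosome 9 contributed a region (61550202 to 61555976) whose folds were 11.3, 9.53 and 16.4 and which lay 22527 bp from a biotin peak. The region on chromosome 3 (95472682 to 95476975) was the most compact of the 12, at 4.29 kb, with folds of 12.3, 5.63 and 10.3. Its outer peaks, the 2 with the higher folds, had p-values listed as 0. The regions on chromosome 7 (134160811 to 134171171) and chromosome 19 (6067887 to 6085060) had folds of at most 8.87 and 7.44. Within the 12 regions, the highest antibody fold exceeded the lowest by 1.58 to 3.07 times.

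The region of this group that also contained shared peaks was on chromosome 4 (32325690 to 32345396, 19.7 kb). Its 2 shared peaks, 545 bp apart at one end, had folds of 21.6 and 21.8. The 3 members followed after a step of 9107 bp, with folds of 18.9, 10.5 and 7.10. The members' folds thus lay below those of the shared peaks. The first of the members lay 8984 bp from the nearest biotin peak and the last 18867 bp.

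**Figure D4:**
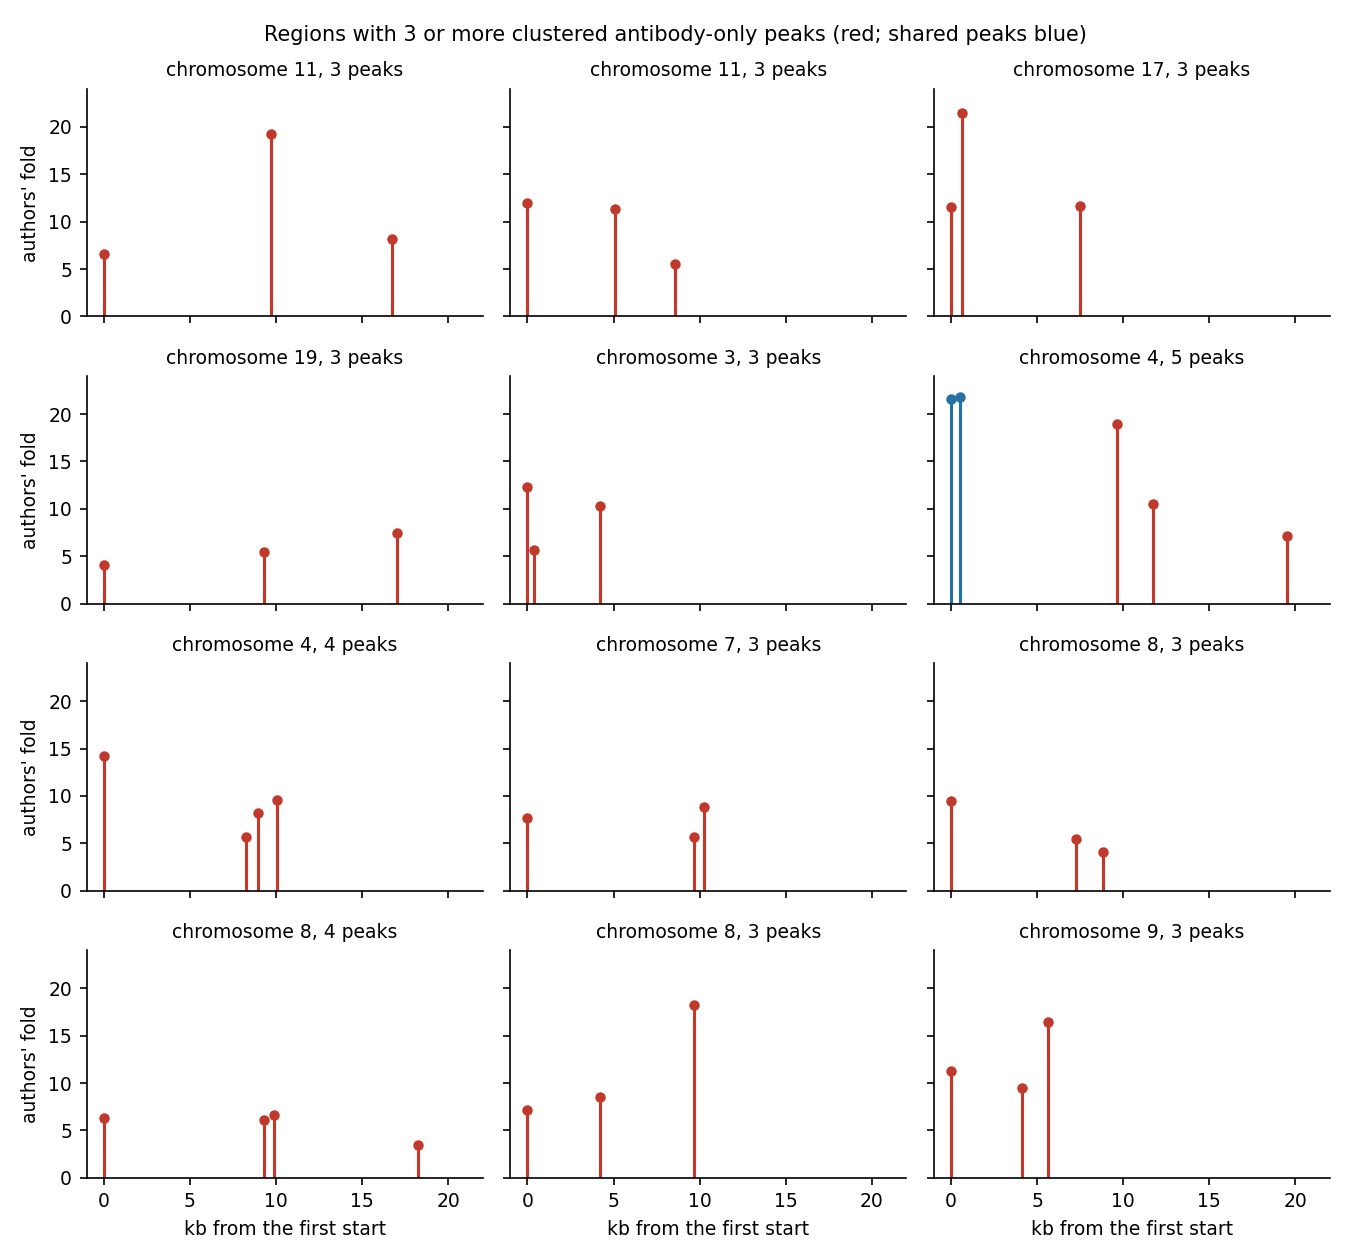
The 12 regions with 3 or more clustered antibody-only peaks, each drawn by distance from the start of its first antibody peak (x axis, kb) and the authors' fold (y axis), with antibody-only peaks in red and shared peaks in blue. Folds run from 3.45 to 21.8, and the 5-peak region on chromosome 4 is the only one of the 12 with shared peaks.

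In regions that held both kinds of peak, the shared peak was usually the higher. There were 73 neighbouring pairs of a member and a shared peak, and the shared peak had the higher fold in 63 of them. A shared peak with a member on each side entered 2 pairs, such as the one on chromosome 11 at 3232403 to 3232498 (fold 38.3). The median fold was 19.8 (interquartile range 12.0 to 29.0) for the shared peaks and 9.44 (7.75 to 12.1) for the members beside them, and the median ratio within pairs was 2.01. Shared peaks had higher folds over the whole list too, so this order is no separate result. Members in such regions had a median fold of 9.44 (8.52 to 10.5, n = 81), and members of antibody-only regions had 8.56 (8.15 to 8.97, n = 317). Their intervals overlap, and the difference was not tested.

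The member of highest fold beside a shared peak lay on chromosome 15 (97300489 to 97300579, fold 27.6). Its shared neighbour 425 bp away (97300064 to 97300081) had an antibody fold of 23.4, so the member was the higher here. The same held on chromosome 16, where a member at 4558703 to 4558803 had a fold of 24.9 and the shared peak 1107 bp away had 15.1. That shared peak met a biotin peak with a biotin fold of 23.0. On chromosome 17 a member at 17762354 to 17762385 had a fold of 21.0 against 19.4 for the shared peak 879 bp away. A biotin peak that met no antibody peak began after a gap of 9 bp, so that it missed the overlap criterion narrowly.

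The order was reversed in the other 2 of these 5 pairs. On chromosome 14 a member at 103499006 to 103499062 had a fold of 25.4 and its shared neighbour had 31.3. On chromosome 13 a member at 94269431 to 94269459 had a fold of 23.1, and the shared peak 246 bp away (94269677 to 94269695) had one of 46.5. These 5 members were at most 1107 bp from a shared peak and ranked between 105 and 221 in the antibody list.

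The biotin list came near to some of the members without touching them. A biotin peak lay within 200 bp of 14 members (3.52%, 1.94 to 5.83%), within 1000 bp of 47 (11.8%, 8.81 to 15.4%) and within 10000 bp of 100 (25.1%, 20.9 to 29.7%). The last share was 47.8% when the rule was applied to the 50% of antibody peaks with the highest fold. That list keeps a larger part of the shared peaks than of the antibody-only ones. A fold of at least 10 was found for 82.7% of shared peaks, 37.4% of members and 39.6% of isolated peaks. Nothing is read from the higher share. For 74 of the 100 members in the full list the nearest biotin peak was itself a shared one. For 26 it was a biotin peak that met no antibody peak. The smallest gap was 2 bp, at a member on chromosome 8 (11009408 to 11009426, fold 15.7), followed by 9 bp at the chromosome 17 member above and 10 bp at a member on chromosome 6 (147039854 to 147039912, fold 11.2). On the other side of the criterion, the smallest overlap of a shared peak was 2 bp.

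Members of antibody-only regions have no shared peak beside them by definition. Of these 317 members, 23 had a biotin peak within 10000 bp (7.26%, 4.65 to 10.7%), and the 23 came from 11 regions. Among isolated peaks it was 62 of 1768 (3.51%, 2.70 to 4.47%). Within 200 bp the shares were 1.58% (0.514 to 3.64%) of these members and 1.70% (1.15 to 2.41%) of isolated peaks. Within 1000 bp they were 3.47% (1.74 to 6.12%) and 2.21% (1.57 to 3.00%), and within 100 kb 25.2% (20.5 to 30.4%) and 20.2% (18.4 to 22.2%). The neighbouring members of a region enter these counts together, so the intervals for members are too narrow, and the difference was not tested. The median distance to the nearest biotin peak was 458984 bp (360240 to 659392 bp) for members of antibody-only regions and 529478 bp (477205 to 580261 bp) for isolated peaks.

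Members were found on 20 chromosomes in unequal shares. Chromosome 11 held the most, 43 members in 23 regions (10.8% of all members), followed by chromosome 8 with 35 in 19 regions and chromosome 7 with 31 in 18. The clustered share of antibody-only peaks was 27.9% (21.0 to 35.7%) on chromosome 11, 28.2% (20.5 to 37.0%) on chromosome 8 and 25.8% (18.3 to 34.6%) on chromosome 7. On chromosome 9 it was 10.8% (5.71 to 18.1%), with 12 members in 6 regions, and on chromosome 15 it was 12.0% (6.70 to 19.3%). Chromosome 16 had a share of 25.3% (16.0 to 36.7%), and the genome-wide share was 18.4%. The rule itself defines this share, and the density of peaks on each chromosome was not taken into account. Members come in pairs, so these intervals are too narrow, and differences between chromosomes were not tested.

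The X chromosome had the highest clustered share from the smallest number of peaks. Of its 40 antibody-only peaks, 12 were clustered (30.0%, 16.6 to 46.5%), as 6 pairs of antibody-only peaks with no shared peak beside them. The closest pair lay 178 bp apart at 35917588 to 35917682 (fold 5.26) and 35917766 to 35917870 (fold 12.7). Another pair started 212 bp apart at 72919228 and 72919440, with folds of 6.52 and 10.1. In each of these pairs the second peak was the higher. The 12 members had a median fold of 8.52 and a highest fold of 12.7, below the highest fold on each of the other 19 chromosomes.

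**Figure D5:**
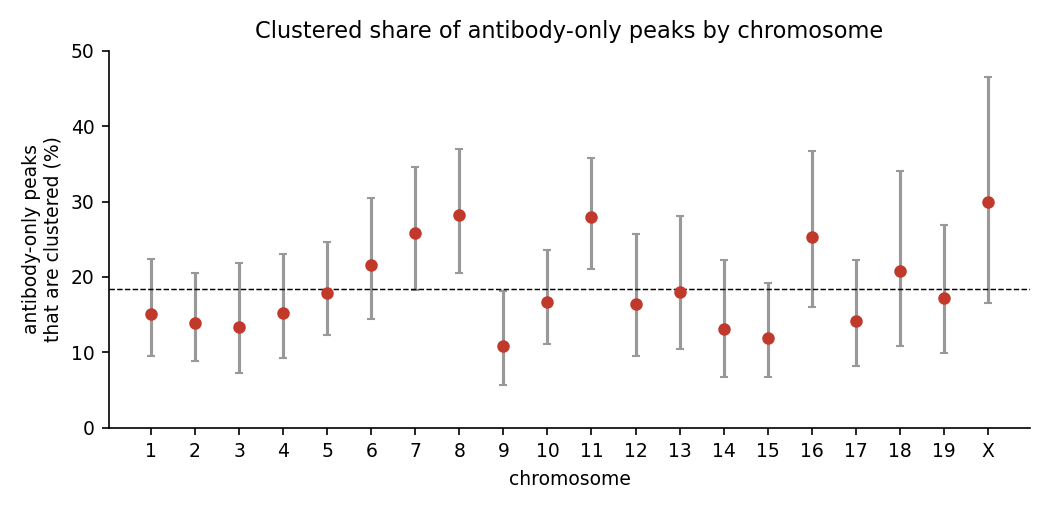
Share of antibody-only peaks that are clustered on each chromosome (points, percent) with exact Clopper-Pearson 95% intervals (bars), which cover counting error over peaks only. The dashed line is the share over all chromosomes, 18.4%, and the points run from 10.8% on chromosome 9 to 30.0% on chromosome X.

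The list deposited with the antibody input, which holds 682 intervals, is taken here as peaks common to both ChIP lists, not as peaks of the input. It contained all 341 shared antibody peaks and none of the 398 members. Members share no base with a biotin peak, so their absence follows from the rule and is no separate result.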

How the data were processed

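Positions follow mm9, and CASAVA 1.4 and Bowtie 0.12.7 are named, per the submitters' processing notes. The sources used here name no peak caller, control or caller settings. Both ChIP lists carry a false discovery rate of 0.05 in their names. The authors deposited a fold (a linear ratio) and a p-value for each peak, per the file headers. The reference of the fold is unknown, so folds were compared within the antibody list only, and the read depth is unknown. Starts were raised by 1, as 0 antibody summits fell on a start and 58 on an end.

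Peaks were compared by an overlap of at least 1 bp and neighbours by start-to-start distance, with Python 3.11.15, pandas 2.3.3, numpy 2.4.6 and scipy 1.17.1. The rule was tested on simulated lists with planted clusters. Shares carry exact Clopper-Pearson 95% intervals and medians order-statistic 95% intervals. With 1 library per group no test between conditions was possible, and none was made over peaks. Named peaks are those in regions with 3 or more members, the 10 members of highest fold, the 5 of highest fold beside shared peaks, the 5 closest and 5 widest-spaced pairs, and 3 peaks on either side of the distance limit. Other peaks (the widest, the nearest to a biotin peak, those on the X chromosome) were chosen after their values were seen. The members and this rule were chosen with earlier results of these data known. A planned search for the forkhead motif and gene lists was not run, as no mm9 genome or annotation was used here.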

Additional observations from a re-analysis of the deposited data

How the results depend on the processing

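Of 64 values (8 results under 8 alternatives), 44 stayed within the interval of the reported value, or within 1.5 times for the count of members, and 20 did not. With a window of 5000 bp the clustered share of antibody-only peaks was 14.1% and the median neighbour distance 801 bp. With 20000 bp they were 24.7% and 3415 bp, and 19.8% of members had a biotin peak within 10000 bp. Wider windows admit more distant neighbours by construction. Joining peaks that start within 1000 bp left 221 clustered sites (10.7% of antibody-only sites) at a median distance of 4339 bp, since close pairs became single sites.

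Stricter lists hold fewer possible neighbours by construction. The list of highest folds also keeps a larger part of the shared peaks than of the antibody-only ones. Its shares near shared and biotin peaks are thus no separate result. In the 50% of antibody peaks with the highest fold, 90 peaks met the rule (9.36% of antibody-only peaks), with a median fold of 12.6, width of 71.5 bp and distance of 1762.5 bp. A shared peak started within 10000 bp of 41.1% of them, against 19.3% in the full list, and a biotin peak lay within 10000 bp of 47.8%. With p-values of at most 1e-13 there were 217 members (13.3%) with a median fold of 9.80, and these last shares were 28.6% and 32.7%. The fold difference between clustered and isolated peaks was 0.048 and 0.054 in these 2 lists, against -0.22 in the full list, with intervals that include 0 in all 3.

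No paired analysis was possible because there were no replicates, which also leaves none to omit in turn. The alternatives for the forkhead motif were not run. The unknown depth limits any statement on a site missing from the biotin list.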
